A study of Arabidopsis thaliana with 12 samples.

Results

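Retained introns that overlap another intron of the same gene were examined in Arabidopsis thaliana seedlings of the sfps-2 mutant, in which the gene of the splicing factor SFPS is mutated, and in their wild type. The authors' splicing lists name each intron as a bin, and a bin whose name carries Io and a number is a whole intron that the counting software had to cut into several pieces, because another transcript of the gene splices or keeps part of it. The members are all Io bins found in at least 1 of the authors' 4 lists of differentially spliced bins, which required an adjusted p under 0.05 and a retention difference of at least 3 percentage points. There were 219 of them in 196 genes, out of 2329 listed retained introns, and the other 2110 introns serve as the comparison. The members were therefore selected on the junction reads and retention shares of the same 4 comparisons, so differences in the 4 comparisons are given as descriptions without a test.

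The 4 groups were sfps-2 seedlings after red light, sfps-2 seedlings kept dark, wild-type seedlings after red light and wild-type seedlings kept dark, with 3 libraries each and 12 in all. Seedlings of both genotypes had the Col-0 background, were grown in the dark to an age of 4 days, and were then given 3 h of continuous red light at 7 µmol m-2 s-1 or 3 further hours of dark. The labels describe sfps-2 as a knockout of SFPS. RNA came from whole seedlings, was freed of ribosomal RNA and was made into stranded libraries. No label states whether the 3 libraries of a group came from separately grown cultures, so the spread and the p-values below measure the difference between libraries, which may be technical. SFPS (AT1G30480) was listed in the authors' deposited table at 1.83 FPKM in sfps-2 and 8.04 FPKM in wild type in the dark, and at 1.93 FPKM in sfps-2 and 7.90 FPKM in wild type in red light, with q of 0.00116 and 0.00138. Root markers, 5 in number, in that table summed to 13.2 FPKM in sfps-2 and 5.17 FPKM in wild type in red light, and to 11.4 FPKM in sfps-2 and 10.7 FPKM in wild type in the dark. None of these root markers was at 0, and their part in the retention differences was not tested. A smaller share of root cells and less RNA per root cell cannot be told apart in whole seedlings.

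An intron is removed by joining a donor site at its 5′ end, usually GT, to an acceptor site at its 3′ end, usually AG. The acceptor is read together with the branch point and pyrimidine tract by U2 snRNP and its auxiliary factor U2AF, and a pair of nearby AGs can compete for the same donor. Plants use intron retention more than exon skipping, and phytochrome photoreceptors alter the splicing of many transcripts when dark-grown seedlings meet red light. SFPS is a nuclear protein that associates with early spliceosome components and with phytochrome B. Retained introns often carry a stop codon, and such transcripts may stay in the nucleus or be degraded.

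The name of the class held against the RefSeq annotation of TAIR10.1. Of the 219 members, 214 (97.7%) overlapped another annotated intron of their gene, against 309 (14.6%) of the 2110 other introns. The 5 members that overlapped none included AT1G02470 Io006, in a gene for a polyketide cyclase-like protein. Most members, 158 (72.1%), shared their donor with an intron that ends at another acceptor, and 112 (51.1%) shared their acceptor with an intron that starts at another donor. In 133 of the 158, every alternative acceptor lay upstream of the member's own, inside it. An annotated exon lay within 71 members (32.4%), against 24 (1.14%) of the other introns. Members were longer, with a median of 339 bp (65 to 1974) against 129 bp, and more often lay in the 5′ untranslated region, 83 (37.9%) against 167 (7.91%). Of the 108 members between coding exons, 102 held a stop codon in the reading frame of the upstream exon. The same held for 1633 of the 1790 other introns between coding exons, so this is common to listed introns. Another acceptor within 30 bases of their own was annotated for 74 members (33.8%), against 99 (4.69%) of the other introns.

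**Figure D1:**
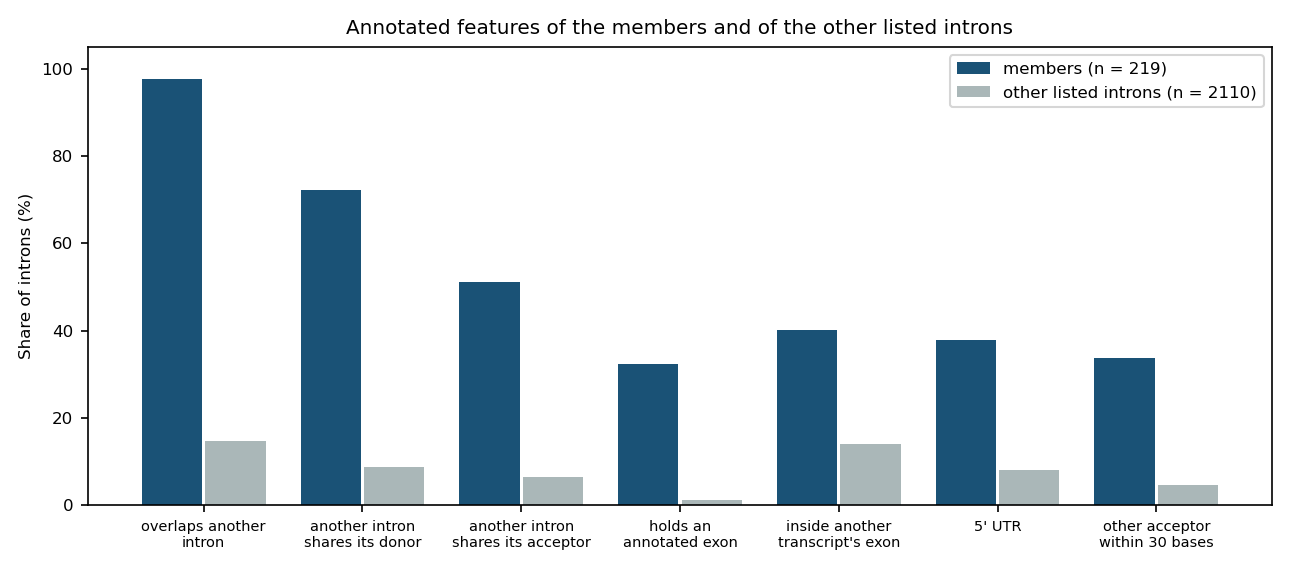
Share of introns (%, y axis) with each annotated feature (x axis), for the 219 members (dark bars) and the 2110 other listed introns (grey bars). Overlap with another intron reached 97.7% of members and 14.6% of the others, and a second acceptor within 30 bases 33.8% and 4.69%.

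The sequences of 15 members are shown because their competing splice sites can be read directly from them. All are written 5′ to 3′ as transcribed, from the RefSeq TAIR10.1 genome, whose coordinates match the authors' TAIR10 bins. The first 7 are whole introns between coding exons, with the donor GT and each annotated acceptor AG in capitals. CKB1 Io005 (AT5G47080) is at chr5:19125980-19126159 on the minus strand, and its inner acceptor ends 9 bases before its own. AT1G02960 Io003 is at chr1:667438-667540 on the minus strand with the inner acceptor 27 bases upstream. AT1G19330 Io006 is at chr1:6681501-6681682 on the minus strand with the inner acceptor 15 bases upstream. AT3G58450 Io004 is at chr3:21622300-21622424 on the plus strand with the inner acceptor 21 bases upstream. HCF109 Io001 (AT5G36170) is at chr5:14236388-14236498 on the minus strand with the inner acceptor 19 bases upstream. GSTZ1 Io003 (AT2G02390) is at chr2:629354-629538 on the plus strand with the inner acceptor 21 bases upstream. AT5G66180 Io009, at chr5:26449060-26449139 on the plus strand, has instead a second donor 5 bases inside its own.
CKB1: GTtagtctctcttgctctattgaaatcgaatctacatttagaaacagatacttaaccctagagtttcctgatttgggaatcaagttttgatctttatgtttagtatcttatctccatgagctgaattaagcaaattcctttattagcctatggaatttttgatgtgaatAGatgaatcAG
AT1G02960: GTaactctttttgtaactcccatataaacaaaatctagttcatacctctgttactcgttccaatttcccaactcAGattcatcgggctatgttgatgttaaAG
AT1G19330: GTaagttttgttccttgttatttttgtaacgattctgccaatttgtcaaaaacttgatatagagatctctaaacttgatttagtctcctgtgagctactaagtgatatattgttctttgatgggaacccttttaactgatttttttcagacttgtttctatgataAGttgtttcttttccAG
AT3G58450: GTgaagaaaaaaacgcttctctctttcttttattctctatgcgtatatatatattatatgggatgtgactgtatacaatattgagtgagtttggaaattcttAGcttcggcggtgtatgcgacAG
HCF109: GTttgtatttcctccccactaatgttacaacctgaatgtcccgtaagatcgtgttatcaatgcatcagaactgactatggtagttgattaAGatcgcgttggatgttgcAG
GSTZ1: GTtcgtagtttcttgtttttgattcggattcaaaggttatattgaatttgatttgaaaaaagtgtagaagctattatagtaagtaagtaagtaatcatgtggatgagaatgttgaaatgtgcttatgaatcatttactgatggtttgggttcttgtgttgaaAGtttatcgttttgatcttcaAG
AT5G66180: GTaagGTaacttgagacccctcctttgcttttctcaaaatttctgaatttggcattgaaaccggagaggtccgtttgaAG

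For 8 further members, 30 bases around the acceptor are shown, the last 27 of the intron and the first 3 after it, with annotated acceptor AGs in capitals. These are PCAP1 Io007 (AT4G20260, chr4:10941540-10941569, plus strand), AT1G77350 Io005 (chr1:29070466-29070495, plus), OTS2 Io014 (AT1G10570, chr1:3488305-3488334, plus), AT5G06980 Io008 (chr5:2168192-2168221, plus), AT2G43160 Io014 (chr2:17948789-17948818, plus), NAC082 Io007 (AT5G09330, chr5:2895041-2895070, minus), CHLM Io002 (AT4G25080, chr4:12878355-12878384, plus) and AT5G20220 Io001 (chr5:6822160-6822189, plus). In CHLM the capitals at the end are an acceptor 3 bases downstream of the member's own, so that AGTAG is read as acceptors in tandem. In OTS2 and AT5G06980 the inner acceptor is also only 3 bases away.
PCAP1: tttgacAGatttgttcacgttgagaAGttt
AT1G77350: taatttgattgtttAGtttggatttAGaag
OTS2: ccatgtgactttaccttgttttAGcAGgat
AT5G06980: ttttgtttccggttttgactgaAGaAGttc
AT2G43160: cgttaatAGataagctgctcatactAGtta
NAC082: attAGcAGgctttacgttgcacaccAGatg
CHLM: ttagctttccgtttggaacttttgcAGtAG
AT5G20220: atgtgctcgattcttgctAGgtttcAGgtt

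Retention was measured in each library from 3 read counts, the unspliced reads across the left end of the intron in genome coordinates (J1), those across the right end (J2) and the reads spliced over exactly that intron (J3), as (J1+J2)/(J1+J2+2 x J3), in percent. Introns of a gene that shared an end had equal reads there in all 62 pairs, J1 for a left and J2 for a right end on either strand, so the 5′ boundary is J1 on the plus strand and J2 on the minus strand. Reads spliced from the same donor to another acceptor are in none of the 3 counts. A transcript spliced at a site inside the member can still give reads across the member's outer end, which then count as unspliced. Over the 513 introns with counts in all 12 libraries, 81 of them members, a library held 296231 to 446932 of these junction reads. The median member had 299 junction reads per library in the dark genotype comparison, 284 in the red-light genotype comparison, 263 in the light comparison of wild type and 414 in that of sfps-2. Unspliced reads at the 5′ and 3′ boundary differed by more than 2-fold at 70 members (32.0%), against 342 (16.2%) of the other introns. The 60 bases around at least 1 boundary occur more than once in the genome for 5 members, so their reads may be shared with a copy.

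Members were listed 107 times for genotype in the dark, 100 times for genotype in red light, 67 times for light in wild type and 40 times for light in sfps-2. A genotype comparison listed 147 members and a light comparison 85, and 13 were listed for both. One member, MPK17 Io010 in the transcript of a MAP kinase, was in all 4 lists. In 19 genes there was more than 1 member, 42 members in all, and such members share boundary reads where they share a splice site. The smallest listed differences, computed on reads pooled over a group, were -3.02 points for AT2G37840 Io004 in the dark and 3.09 points for AT2G45540 Io028 in red light. Introns below the authors' threshold were not analysed here.

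In the dark, 73 of 107 members were retained more in sfps-2 than in wild type and 34 less, with 64.8% of all 850 listed introns retained more and 35.2% less. In red light, 63 of 100 members were retained more in sfps-2 and 37 less, with 69.8% of all 888 listed introns retained more and 30.2% less. The median size of the difference was 8.29 points in the dark and 9.58 points in red light. The sfps-2 and wild-type libraries did not overlap for 84 of the 107 members in the dark, where 85.3% of all listed introns did not overlap, and for 88 of the 100 in red light, against 84.6%. The members' counts are thus near those of all listed introns in both conditions. Members retained less in sfps-2 had a median length of 221 bp in the dark and 150 bp in red light, and those retained more 368 bp and 378 bp. The pooled 5′ and 3′ boundaries moved in the same direction for 101 of 107 members in the dark and 97 of 100 in red light. Both boundary shares use the same J3, and members were listed on both boundaries together, so this agreement is partly built in.

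The dark and red-light genotype comparisons share no library. Of the 60 members listed in both, 44 were retained more in sfps-2 in both conditions and 16 less in both, and none changed direction. The other introns listed in both kept their direction in 291 of 292 cases, so this is common to listed introns.

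**Figure D2:**
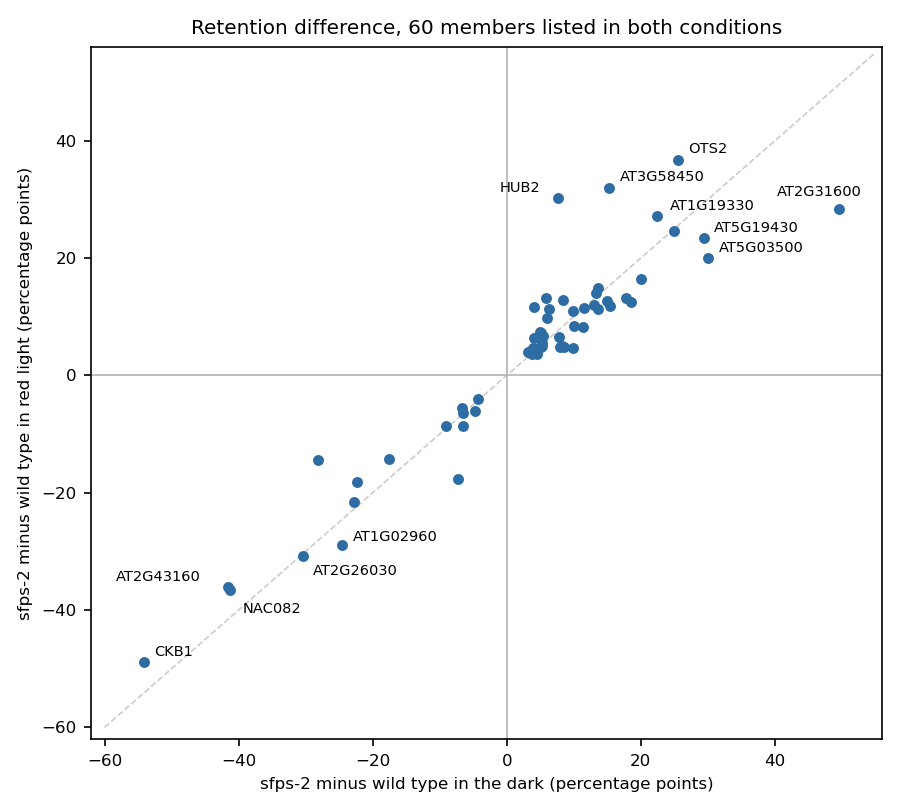
Difference in retention, sfps-2 minus wild type, in the dark (x axis, percentage points) and in red light (y axis, percentage points) for the 60 members listed in both conditions. Each point is 1 member, the dashed line marks equal differences, and all points lie either above 0 on both axes (44) or below 0 on both (16).

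Among the members listed in both conditions, the largest loss of retention in each condition was that of CKB1 Io005, in the gene for a regulatory beta subunit of the protein kinase CK2. Its retention was 8.45%, 8.16% and 13.2% in dark sfps-2 libraries, against 64.4%, 61.5% and 66.4% in dark wild type. With red light it was 16.7%, 11.9% and 11.6% in sfps-2, against 64.4%, 55.1% and 67.4% in wild type. All sfps-2 libraries were far below all wild-type libraries, and dark and red-light libraries overlapped within each genotype. The mean difference was -54.2 points in the dark and -48.9 points in red light.

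NAC082 Io007 is a 5′ untranslated intron of a NAC transcription factor that acts in the response to disturbed ribosome formation. Retention was 39.6%, 31.1% and 40.2% in dark sfps-2, against 69.7%, 88.4% and 76.6% in dark wild type. After red light it was 49.7%, 46.9% and 39.0% in sfps-2, against 93.2%, 75.2% and 76.9% in wild type. Every sfps-2 value was under every wild-type value. AT2G43160 Io014, also 5′ untranslated, belongs to an ENTH/VHS protein, a family that works in vesicle formation. It stood at 25.8%, 16.4% and 23.0% in dark sfps-2, against 67.8%, 55.7% and 66.2% in dark wild type. In red light the values were 22.7%, 25% and 22.7% in sfps-2, against 51.6%, 65% and 61.9% in wild type. Again the genotypes were fully apart, with differences of -41.5 points in the dark and -36.0 points in red light. Both introns have other annotated acceptors, for NAC082 22 and 19 bases upstream and 288 downstream, for AT2G43160 18 upstream and 11 downstream. Reads to these were not counted, so the values are not shares of all transcripts.

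BGLU11 Io007, an intron whose length is a multiple of 3 and which holds no stop in frame, lies in a beta-glucosidase gene. It was retained at 12.5%, 15.6% and 13.1% in dark sfps-2, against 37.7%, 35.1% and 35.5% in dark wild type. Red-light values were 11.4%, 17.3% and 11.2% in sfps-2, against 28.1%, 31.8% and 34.7% in wild type. The libraries of each genotype lay close together and the genotypes did not overlap. The 5′ and 3′ boundaries of BGLU11 Io007 held 1308 and 268 unspliced reads, and reads to its annotated inner acceptor were not counted. AT1G01910 Io001 lies in the 3′ untranslated region of an ATPase gene of the P-loop type. Its retention beside its own junction averaged 68.2% ± 5.56 in sfps-2 and 91.0% ± 2.24 in wild type in the dark. In red light it averaged 67.7% ± 6.73 in sfps-2 and 89.4% ± 1.75 in wild type (SD, n = 3 each). Reads to its annotated inner acceptor were not counted, so these values are not shares of all transcripts. The F-box gene AT2G26030 kept its Io003 at 35% ± 4.60 in sfps-2 and 65.4% ± 4.11 in wild type in the dark, and at 36.3% ± 4.12 in sfps-2 and 67.1% ± 1.85 in wild type in red light (SD, n = 3 each). AT1G02960 Io003, in a gene annotated as a kinetochore protein, averaged 18.9% ± 5.84 in sfps-2 and 43.5% ± 10.4 in wild type in the dark, and 23.9% ± 4.42 in sfps-2 and 52.8% ± 10.4 in wild type in red light (SD, n = 3 each). These 3 introns also showed no overlap between genotypes. With reads to the inner acceptor of AT1G02960 counted as spliced, an alternative described further on, its difference was -4.27 points in the dark and -4.79 in red light, with overlap in both.

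The other 9 of the 16 members with lower retention in sfps-2 in both conditions spanned several functions. BIN4 (DNA topoisomerase VI complex, needed for endoreduplication) differed by -28.2 points in the dark and -14.5 in red light, and SKL1 (a shikimate kinase-like protein needed for chloroplast formation) by -17.6 and -14.3. The SR-type splicing factor SCL33 differed by -9.07 and -8.69 points, and the RING protein gene AT2G15580 by -7.21 and -17.6. Smaller differences were those of AT1G29120, a hydrolase-like gene, at -6.72 and -5.61, of GCT, a Mediator subunit, at -6.56 and -8.57, and of VAB2 Io015, a V-ATPase B subunit, at -6.51 and -6.40. ARI5, an Ariadne-type RING protein, differed by -4.67 and -6.01, and LUH, a homologue of the corepressor LEUNIG, by -4.31 and -4.09. In red light AT1G29120 was the one of these whose genotypes overlapped, at 7.03%, 9.81% and 12.8% in sfps-2, against 17.5%, 16.4% and 12.6% in wild type.

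Higher retention in sfps-2 in both conditions was found at 44 members. The largest in the dark was AT2G31600 Io001, in a gene annotated as similar to a subunit of the INO80 chromatin remodelling complex, at 48.1%, 44.3% and 85.2% in sfps-2, against 2.82%, 18.2% and 7.84% in wild type. Under red light it was 26.3%, 43.6% and 51.4% in sfps-2, against 17.5%, 7.53% and 10.9% in wild type. The genotypes did not overlap, but the sfps-2 libraries were spread widely on 24 to 25 junction reads in the shallowest of them. OTS2 Io014 lies in a gene for a protease that removes SUMO from proteins. Its retention was 72.4%, 54.7% and 66.7% in dark sfps-2, against 39.0%, 45.8% and 32.4% in dark wild type. In red light it was 78.2%, 55.6% and 71.1% in sfps-2, against 44.3%, 26.4% and 23.7% in wild type, again without overlap. The 5′ and 3′ boundaries of OTS2 Io014 held 111 and 620 unspliced reads, and reads to its acceptor 3 bases upstream were not counted.

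AT2G30600 Io004, in a BTB/POZ domain gene, had 66.4%, 67.7% and 64.6% in dark sfps-2, against 38.8%, 46.3% and 38.9% in dark wild type. The difference was 24.9 points in the dark and 24.7 points in red light, where sfps-2 had 67.0%, 56% and 70.2%, against 38.5%, 40.6% and 39.9% in wild type. The values thus lay in bands that did not meet, with the same gap in both light conditions. AT5G19430 Io001, of a RING-type protein gene, was at 38%, 41.9% and 33.1% in dark sfps-2, against 8.28%, 9.22% and 7.13% in dark wild type. Red light gave 35.4%, 33.9% and 28.3% in sfps-2, against 8.67%, 9.36% and 9.36% in wild type. Wild-type libraries were almost identical and all sfps-2 libraries stood well above them. AT1G19330 Io006, of a gene annotated as a histone deacetylase complex subunit, had 43.9%, 25.7% and 34.1% in dark sfps-2, against 12.8%, 10.4% and 13.1% in dark wild type. In red light it had 43.7%, 39.5% and 36.0% in sfps-2, against 5.71%, 16.1% and 15.8% in wild type, with no overlap in either condition. With reads to its inner acceptor counted as spliced, the difference of AT1G19330 was 0.903 points in the dark and 1.83 in red light instead of 22.5 and 27.2, and the genotypes overlapped in both.

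HCF109 Io001 lies in the gene of a chloroplast peptide chain release factor, which ends translation at UGA codons in plastids. Retention was 15.5%, 16.5% and 14% in dark sfps-2, against 1.92%, 4.19% and 5.25% in dark wild type. In red light it was 14.1%, 18.8% and 15.7% in sfps-2, against 5.45%, 4.46% and 3.99% in wild type. The genotypes were separate at a low level of retention, with a difference of 11.6 points in both conditions. The Mediator subunit gene AT5G03500 (Med7 family) had a pair of such members in its 5′ untranslated region that share a donor. Its Io006 averaged 94.5% ± 3.06 in sfps-2 and 64.5% ± 4.51 in wild type in the dark, and 78.7% ± 8.72 in sfps-2 and 58.7% ± 8.01 in wild type in red light (SD, n = 3 each). The 20 bases longer Io005 averaged 21.9% ± 8.20 in sfps-2 and 6.52% ± 3.19 in wild type in the dark, and 19.8% ± 3.2 in sfps-2 and 8.03% ± 1.33 in wild type in red light.

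**Figure D3:**
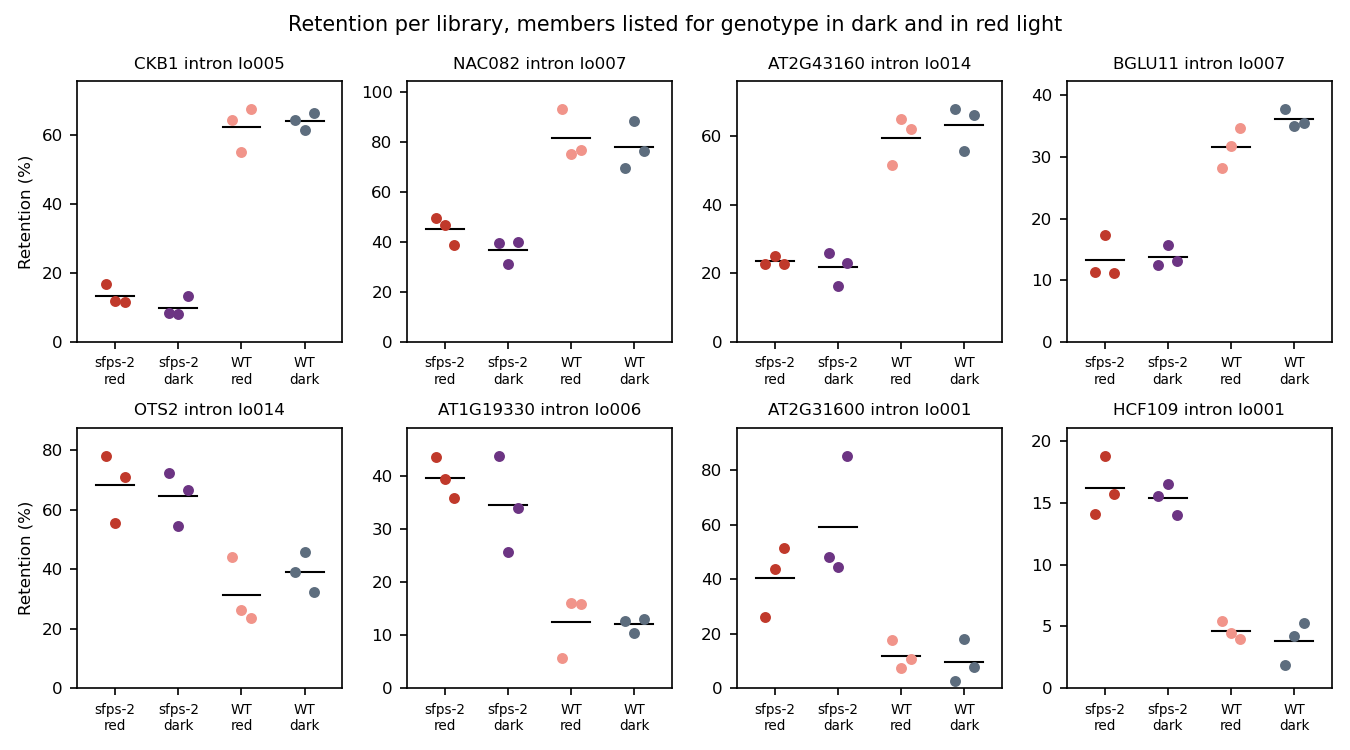
Retention (%, y axis) of 8 members in each library, with sfps-2 red, sfps-2 dark, wild-type red and wild-type dark from left to right and a bar at each group mean (n = 3). In the upper row sfps-2 libraries lie below all wild-type libraries, and in the lower row above them.

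The flowering repressors FLC and MAF1 are related MADS-box genes whose products delay flowering, and each had a member retained more in sfps-2. FLC Io001 was at 20.9%, 13.5% and 9.71% in dark sfps-2, against 4.08%, 4.03% and 6.25% in dark wild type. In red light it was at 8.6%, 7.40% and 6.14% in sfps-2, against 3.30%, 2.19% and 2.80% in wild type. The genotypes did not overlap, and within sfps-2 the red-light libraries were below the dark ones, a difference of -7.35 points for which FLC was also listed. Within wild type the red-light libraries were below the dark ones too, by a difference of -2.03 points that was not listed. Whether the counting separated strands is not given in the sources used here, so reads from antisense transcripts at FLC cannot be told apart. MAF1 Io006 was at 24.7%, 27.4% and 32.4% in dark sfps-2, against 15.6%, 13.3% and 15.7% in dark wild type, and the genotypes were as far apart in red light, with 28.2% ± 0.740 in sfps-2 and 14.2% ± 3.44 in wild type (SD, n = 3 each). In the authors' deposited table FLC stood at 20.3 FPKM in sfps-2 and 59.9 FPKM in wild type in the dark (q = 0.00116), and at 21.1 and 43.6 FPKM in sfps-2 and wild type in red light (q = 0.00138).

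For other members the difference was mainly seen in 1 light condition. HUB2 Io010, of a ligase that adds ubiquitin to histone H2B, was at 54.5%, 53.6% and 48.1% in red-light sfps-2, against 19.8%, 20.8% and 25.2% in red-light wild type. In the dark it was at 45.5%, 35.8% and 28.0% in sfps-2, against 33.3%, 24.4% and 28.6% in wild type. The genotypes were 30.2 points apart in red light and overlapped in the dark. AT3G58450 Io004, of an adenine nucleotide alpha hydrolase-like gene, was at 62.6%, 66.9% and 57.4% in red-light sfps-2, against 36.6%, 27.4% and 26.8% in red-light wild type. Its dark libraries overlapped, at 39.4%, 58.1% and 33.3% in sfps-2, against 22.5%, 34.4% and 28.1% in wild type. The direction of AT3G58450 turned when reads to its inner acceptor were counted as spliced, to -4.76 points in red light instead of 32.0 and to -9.63 in the dark instead of 15.3, without overlap. Whether the genotype difference depended on light was not tested for either intron, because the contrasts in it had chosen them.

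Further members with higher retention in both conditions included regulators of RNA and of signalling. XBAT35, a RING ubiquitin ligase with ankyrin repeats, differed by 19.98 points in the dark and 16.4 in red light at Io010, and AT1G61150, with LisH and RanBPM domains, by 17.8 and 13.1 points at Io001. The spliceosome component SKIP differed by 3.91 and 4.72 points at Io001 (5′ untranslated), the SR-like PRP38 family protein ATSRL1 by 5.85 and 13.2 points at Io003, and the nuclear poly(A) polymerase nPAP by 5.4 and 6.67 points at Io011. DND1, a cyclic nucleotide-gated ion channel of plant defence, differed by 5.09 and 4.90 points at Io007. DYL1, a dormancy-associated protein, differed by 7.93 and 4.86 points at Io001, and ECIP1, an MA3 domain protein that binds the ethylene regulator EIN2, by 8.62 and 4.77 points at Io001. Libraries of the genotypes did not overlap for any of these in either condition. With the other junction of the same intron counted as spliced, ECIP1 differed by 1.62 points in the dark and 1.06 in red light. On the same count XBAT35 differed by -0.242 and -0.0204 points, both genes with overlap, and SKIP by 2.29 and 2.94 points without overlap. The other SKIP junction leaves 176 bp of the intron in the transcript, and the 5′ and 3′ boundaries held 398 and 1663 reads in all. Reads of that splice form may thus remain among the unspliced reads of SKIP, which was not tested.

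Large differences listed for 1 condition were led by PCAP1 Io007, in the 5′ untranslated region of a plasma membrane protein that binds calcium ions and phosphoinositides. Retention was 22.0%, 20.9% and 22.6% in dark sfps-2, against 82.2%, 80.9% and 83.7% in dark wild type, a difference of -60.4 points with libraries of a genotype within 3 points. This was the best covered of the large differences, with 3127 junction reads per library in sfps-2 and 1890 in wild type. PCAP1 Io007 also has annotated acceptors 19 bases upstream and 10 bases downstream of its own. Reads to them are in none of the 3 counts and were not in the lists, so the difference could not be recomputed with them. VAB2 Io014 had 19.1%, 100% and 100% in dark sfps-2, against 21.9%, 26.4% and 21.9% in dark wild type, so 1 sfps-2 library lay under all wild-type libraries and the groups overlapped. In red light CYP708A2 Io009, of the cytochrome P450 that oxidises the triterpene thalianol, was at 45.8%, 42.5% and 66.3% in sfps-2, against 100%, 71.8% and 89.1% in wild type. AT5G26270 Io002, of an uncharacterized protein, was at 89.6%, 88.7% and 94.5% in red-light sfps-2, against 52.1%, 57.1% and 58.2% in red-light wild type. Both of these red-light differences (-35.4 and 35.1 points) were without overlap.

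Reads of the overlapping splice form were also in the lists for some members, as an exon bin inside the member with its own junction counts. Such a bin was listed in the same comparison for 29 of 107 members in the dark (15 alternative acceptors, 5 alternative donors and 9 skipped exons) and for 25 of 100 in red light (18, 2 and 5). The share of the other junction was taken as its reads out of those reads plus the member's own J3. Since J3 enters both this share and retention, and the authors chose the exon bins in the same contrast, the following is a description. Retention and the other junction share moved in the same direction in 27 of 29 members in the dark (19 up in sfps-2, 8 down) and in all 25 in red light (21 up, 4 down). The exceptions in the dark were Io012 and Io013 of AT1G67800.

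CKB1 showed the pattern in the direction of less retention. The junction to the acceptor 9 bases upstream had 108, 90 and 84 reads beside 130, 152 and 92 reads of the member's own junction in dark sfps-2. In dark wild type it had 330, 272 and 246 reads beside 26, 25 and 19. The inner AG in the sequence above thus took 43.4% ± 5.53 of these reads in sfps-2 and 92.4% ± 0.685 in wild type (SD, n = 3 each), and 43.4% and 91.4% in red light. With the inner junction added to the denominator, mean retention of CKB1 was 5.82% in sfps-2 and 12% in wild type in the dark, a difference of -6.16 points instead of -54.2. AT1G02960, with its inner AG 27 bases upstream, had 26.3% ± 2.69 of reads on it in sfps-2 and 69.5% ± 6.39 in wild type in the dark (SD, n = 3 each). AT1G77350 Io005, in a keratinocyte-associated-like protein gene and chosen after its values were seen, had 57.0% ± 6.04 on its AG 11 bases upstream in sfps-2 and 91.6% ± 1.95 in wild type in the dark, beside retention of 10.5% in sfps-2 and 43.2% in wild type.

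In other members the inner acceptor was used more in sfps-2. At HCF109, 153, 124 and 107 reads went to the AG 19 bases upstream in dark sfps-2, beside 106, 124 and 138 of its own junction. Dark wild type had 16, 15 and 5 reads on that AG beside 332, 389 and 280. The inner AG of HCF109 was close to unused in wild type (3.35% ± 1.46) and took 50.9% ± 7.74 of the reads in sfps-2 (SD, n = 3 each), with 55% in sfps-2 and 3.16% in wild type in red light. GSTZ1 Io003, in a glutathione S-transferase of tyrosine breakdown and chosen after its values were seen, had 64.2% ± 2.78 on its AG 21 bases upstream in red-light sfps-2 and 6.5% ± 2.21 in red-light wild type. AT1G19330 had 78.6% ± 6.82 on the AG 15 bases upstream in sfps-2 and 27.1% ± 6.34 in wild type in the dark, and AT3G58450 82.1% ± 7.44 in sfps-2 and 31.2% ± 2.48 in wild type. Competing acceptors were therefore used more in sfps-2 in some of these introns and less in others.

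Skipped or included exons gave the same pairing. The 56 bp exon inside AT2G31600 Io001 was joined by 39.0, 32.5 and 33.5 reads (mean of its 2 junctions) in dark sfps-2, beside 14, 22 and 2 reads that skip it. Dark wild type had 8.50, 2.50 and 13.5 beside 69, 45 and 47, and the exon's share was 75.9% ± 17.5 in sfps-2 and 12.8% ± 8.68 in wild type. The 72 bp exon inside XBAT35 Io010 had a share of 90.1% ± 2.36 in sfps-2 and 51.4% ± 1.52 in wild type in the dark, and the 127 bp exon inside DND1 Io007 a share of 17.2% ± 3.69 in sfps-2 and 0.697% ± 0.663 in wild type. With the exon's junctions added, retention of XBAT35 was 3.58% in sfps-2 and 3.82% in wild type, so that the 19.98 point difference in the dark became -0.24 points.

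Over these members the median size of the genotype difference was 8.62 points with the member's own junction and 3.45 points with the other junction added in the dark, and 11 and 3.63 points in red light. With it added, a difference of at least 3 points in either direction was found in 16 of 29 members in the dark and 15 of 25 in red light. The direction turned in 4 members in each condition. The 16 and 15 include members that turned, namely AT3G58450 in both conditions, AT4G10925 Io004 in the dark and MPK17 Io010 in red light. AT2G30600 kept 18.1 points in the dark and 18.7 points in red light, with 47.3% in sfps-2 and 29.2% in wild type in the dark, and AT2G31600 kept 14.1 points in the dark. HCF109 kept 4.46 points in the dark and 3.48 points in red light, and CKB1 -4.28 points in red light. AT1G77350 was left with -1.03 points in the dark and GSTZ1 with -0.96 points in red light, both with overlap. The members that turned were AT3G58450 and XBAT35 in both conditions, MPK17 Io010 (-4.17 points) and GSTZ1 in red light, and AT4G10925 Io004 (6.27 points instead of -21.8) and AT2G37840 Io004 (2.62 instead of -3.17) in the dark, of which AT4G10925 is named after its values were seen. Members without a listed exon bin could not be examined in this way.

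**Figure D4:**
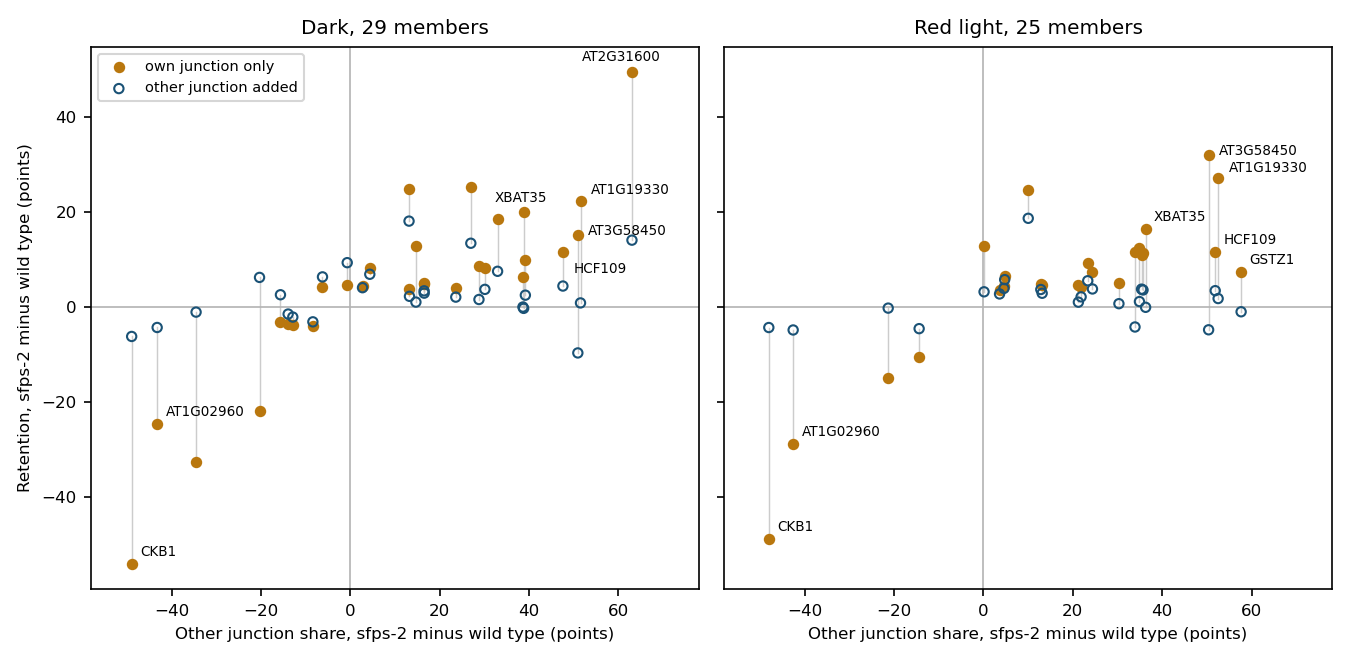
Difference in the share of the other junction (x axis, percentage points) against the difference in retention (y axis, percentage points), sfps-2 minus wild type, for 29 members in the dark (left) and 25 in red light (right). Filled points count the member's own junction only and open points add the other junction, joined by a line per member, and the median size of the retention difference is 8.62 against 3.45 points in the dark and 11 against 3.63 points in red light.

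Red light went with higher retention than dark at 39 of 67 members in wild type and lower at 28, with 51.3% of all 766 listed introns higher and 48.7% lower. In sfps-2 it went with higher retention at 23 of 40 members and lower at 17, with 45.7% of all 466 listed introns higher and 54.3% lower. The red-light and dark libraries did not overlap for 34 of 40 members in sfps-2, against 81.1% of all listed introns, and for 42 of 67 in wild type, against 79.8%. Of 22 members listed in both genotypes, 12 were higher in red light in both, 7 lower in both and 3 opposite. The other introns listed in both genotypes kept their direction in 142 of 146 cases.

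The opposite cases had few reads in the dark libraries. KAT5 Io013, of a peroxisomal thiolase of fatty acid breakdown, had a mean of 1.33 junction reads per dark sfps-2 library and 0.667 per dark wild-type library. PnsL1 Io008, of a subunit of the chloroplast NDH complex, had 25 in dark sfps-2 and 21.7 in dark wild type, and AT5G61310 Io002, of a cytochrome c oxidase subunit, had 31.3 and 32.0. In 1 of the dark sfps-2 libraries each of these introns stood far above the others, at 100% (KAT5), 75% (PnsL1) and 53.8% (AT5G61310), and without that library KAT5 and PnsL1 were higher in red light in both genotypes. The difference in sfps-2 became 20.2 points for KAT5 without dark replicate 2 and 6.06 points for PnsL1 without dark replicate 3. For AT5G61310 Io002 it became -4.94 points without dark replicate 1, -3.65 without dark replicate 3 and -0.89 without red-light replicate 3 of sfps-2, so that its direction turned as well.

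The member with the largest light difference on many reads was CHLM Io002, in the 3′ untranslated region of magnesium-protoporphyrin IX methyltransferase, an enzyme of chlorophyll synthesis. Its retention was 49.6%, 54.5% and 47.9% in red-light sfps-2, against 25.5%, 20.9% and 21.0% in dark sfps-2. Wild type had 52.7%, 53.5% and 56.4% in red light, against 24.3%, 21.6% and 23.8% in the dark. Red-light and dark libraries were fully apart, by 28.1 points in sfps-2 and 30.9 points in wild type. The 5′ and 3′ boundaries of CHLM Io002 held 4885 and 1606 unspliced reads in all. Reads to its annotated acceptors 43 bases upstream and 3 bases downstream were not counted, so these values are not shares of all transcripts. In the authors' deposited table CHLM was at 167 FPKM in red light and 96.4 FPKM in the dark in sfps-2, and at 188 FPKM in red light and 74.3 FPKM in the dark in wild type.

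AT5G20220 Io001, 5′ untranslated in a zinc knuckle protein gene, had 31.1%, 42.1% and 42.6% in red-light sfps-2, against 18.5%, 18.8% and 12.2% in dark sfps-2. In wild type it had 40.4%, 41.4% and 40.9% in red light, against 21.3%, 25% and 17.3% in the dark. Both genotypes showed the same separation, of 22.1 points in sfps-2 and 19.7 points in wild type. The 5′ and 3′ boundaries of AT5G20220 Io001 held 174 and 990 unspliced reads, and reads to its acceptor 7 bases upstream were not counted. GPX3 Io007, of a glutathione peroxidase, had 31.0%, 46.2% and 39.2% in red-light sfps-2, against 19.2%, 20.7% and 17.8% in dark sfps-2, while red-light and dark libraries overlapped in wild type at 32.4%, 19.6% and 34.2%, against 19.7%, 15.5% and 25.9%. The 2 members of AT3G26890 that were listed in both genotypes overlap each other and share 1 boundary, and the mean of its Io006 was 35.2% ± 1.31 in red light and 25.5% ± 2.83 in the dark in sfps-2, and 34.5% ± 1.53 in red light and 23.8% ± 1.57 in the dark in wild type (SD, n = 3 each).

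Smaller differences toward higher retention in red light, without overlap between red-light and dark libraries in either genotype, were those of 5 more genes. GOX1 (glycolate oxidase of photorespiration) was higher by 4.21 points in sfps-2 and 3.84 in wild type at Io002, and RPL4 (ribosomal protein L4) by 5.29 and 7.21 points at Io001. SEN1, a gene active in darkness and senescence, was higher by 6.41 points in sfps-2 and 4.31 points in wild type at Io004, the hydrolase gene AT1G35420 by 8.12 and 4.86 points at Io001, and the F-box gene AT2G16365 by 8.64 and 12.5 points at Io001. Among members retained less in red light, PSY (phytoene synthase, the entry enzyme of carotenoid synthesis) differed by -4.26 points in sfps-2 and -4.52 in wild type at Io006, and LHCB4.3, a photosystem II antenna protein, by -8.34 and -5.30 points at Io001. IPK2a Io004, of an inositol phosphate kinase, differed by -8.92 points in sfps-2 and -3.76 in wild type. Red-light and dark libraries overlapped in wild type for LHCB4.3 and IPK2a. With reads of the 5′ boundary alone, the direction turned for LHCB4.3 in wild type, to 0.85 points, and for AT2G16365 in sfps-2, to -0.39 points.

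Listed in 1 genotype only were AT3G53470 Io001, a phosphoglycerate mutase-like gene, at 41.5%, 49.0% and 35.7% in red-light wild type, against 29.2%, 6.49% and 15.6% in the dark, and AT1G02470 Io006, at 37.4%, 35.4% and 31.3% in red-light sfps-2, against 16.8%, 10.9% and 13.8% in the dark. AT3G55080 Io006, of a SET domain protein, had 11.3%, 24.1% and 39.6% in red-light sfps-2, against 3.12%, 6.35% and 13.8% in the dark, with overlap. PnsL1 Io009 was at 59.1%, 74.8% and 69.7% in red-light wild type, against 100% in all 3 dark libraries, which held a mean of 12.7 junction reads each. RLP1 Io001, of a receptor-like protein, averaged 4.57% ± 5.06 in red-light wild type and 23.1% ± 9.60 in the dark (SD, n = 3 each), on a mean of 13.3 reads per library in red light and 10.7 in the dark. At this depth 1 red-light library held 0 unspliced reads of RLP1.

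**Figure D5:**
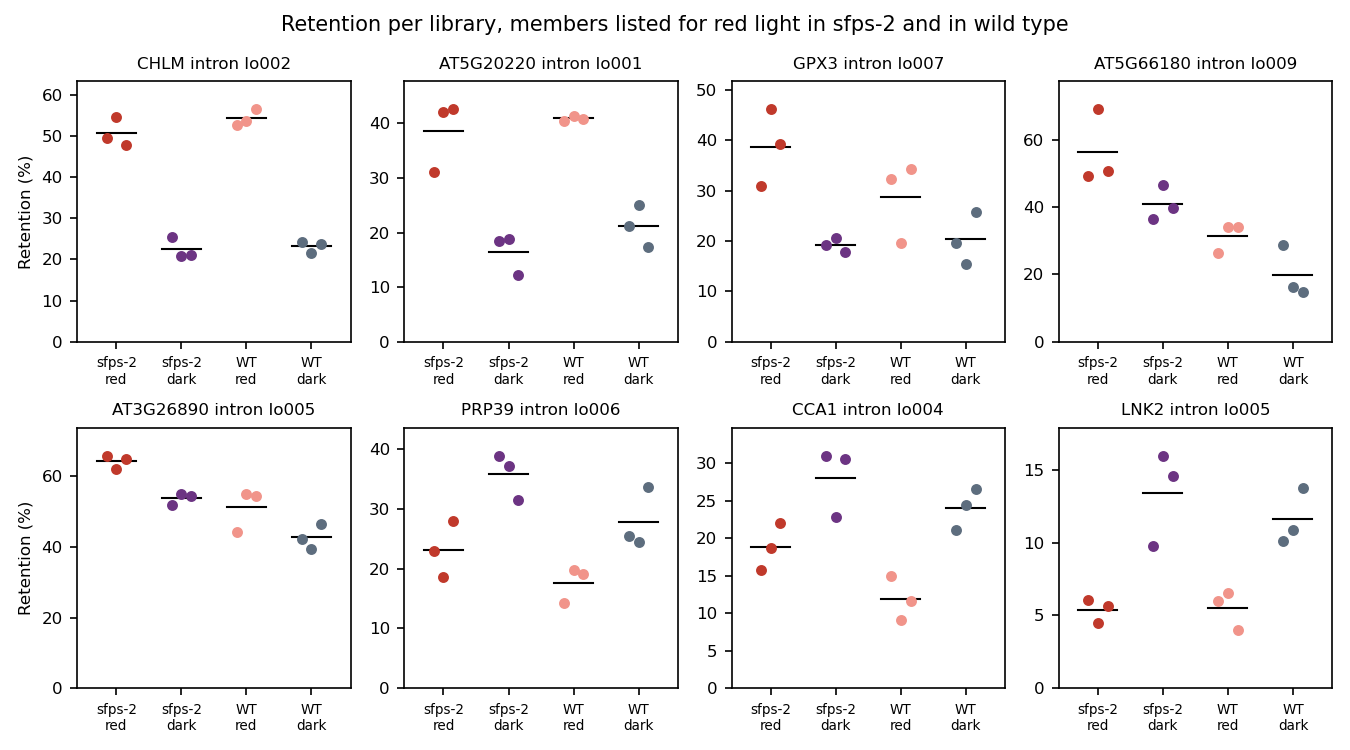
Retention (%, y axis) of 8 members in each library, with sfps-2 red, sfps-2 dark, wild-type red and wild-type dark from left to right and a bar at each group mean (n = 3). CHLM stands at 50.6% and 54.2% in red light in sfps-2 and wild type, and at 22.5% and 23.3% in the dark, while CCA1 and LNK2 are lower in red light.

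Members were present among clock genes and splicing regulators. Of 25 clock genes, 5 hosted 1 member each, and of 30 splicing regulators 4 did, while none of 38 light signalling genes did. The other listed introns lay in 6 of these clock genes, 7 of the splicing regulators and 7 of the light signalling genes. Whether members favour any of these lists was not tested. In CCA1, a morning-phased transcription factor of the clock, Io004 was at 15.7%, 18.7% and 22.0% in red-light sfps-2, against 30.9%, 22.8% and 30.5% in dark sfps-2. Wild type had 15%, 9.11% and 11.6% in red light, against 21.1%, 24.4% and 26.5% in the dark. Retention was lower in red light without overlap in both genotypes, and in red light all sfps-2 values were above all wild-type values, by 6.91 points in the mean.

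LNK2 (AT3G54500), a coactivator of clock genes that acts with the CCA1-related RVE proteins, had a member at 6.08%, 4.46% and 5.65% in red-light sfps-2, against 9.76%, 16.0% and 14.6% in dark sfps-2. In wild type its Io005 was at 6.0%, 6.52% and 4.01% in red light, against 10.1%, 10.9% and 13.8% in the dark. Light again separated the libraries in both genotypes. The related LNK1 (AT5G64170) had Io006 at 8.75%, 7.24% and 8.34% in red-light wild type, against 13.2%, 9.39% and 14.5% in the dark, and LHY, the partner of CCA1, had Io004 at 0.513%, 1.15% and 0.157% in red-light sfps-2, against 6.37%, 6.19% and 1.98% in the dark. The host transcripts of CCA1, LNK2, LNK1 and LHY were called higher in red light in those comparisons in the authors' deposited table. LNK4 (AT5G06980) was listed for genotype, with Io008 at 63.5% ± 9.90 in sfps-2 and 55.1% ± 2.55 in wild type in the dark (SD, n = 3 each), and the genotypes overlapped in the dark and in red light. Its inner acceptor, 3 bases upstream, took 94.7% ± 1.27 of the junction reads in sfps-2 and 94.5% ± 1.26 in wild type in red light.

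Among splicing regulators, U2AF65A, the large U2AF subunit that binds the pyrimidine tract, had Io002 at 42.2%, 53.8% and 41.2% in red-light wild type, against 58.1%, 63.6% and 65.6% in the dark. SCL33 Io003 differed by -7.90 points between red light and dark in wild type, beside its lower retention in sfps-2. The arginine and serine rich factors RS2Z32 and RS40 had members that differed by -5.06 points for light in wild type and by -3.72 points for genotype in the dark. PRP39, a U1 snRNP component that is on none of the lists, had Io006 at 22.9%, 18.5% and 27.9% in red-light sfps-2, against 38.8%, 37.2% and 31.5% in dark sfps-2, and at 14.2%, 19.8% and 19.0% in red-light wild type, against 25.5%, 24.5% and 33.6% in dark wild type. Each of these regulators had lower retention in red light or in sfps-2, with no overlap between libraries. With the other junction counted as spliced, PRP39 differed by -4.86 points in sfps-2, with overlap, and by -5.34 points in wild type, and RS40 by -2.07 points.

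The factor for which an intron had not been listed was tested on the introns with all 12 libraries. Absence from the authors' lists for that factor rests on the same reads, which by itself lowers the number of passes, so the counts say nothing of how often the factor acts on introns in general. For introns listed for genotype but not for light, the mean effect of red light over both genotypes was tested with edgeR's quasi-likelihood test on boundary against spliced reads, adjusted by Benjamini-Hochberg over 323 introns. None of 55 members passed an adjusted p of 0.05, and 9 of the 323 introns did (2.79%). Of the 323, 4 passed without replicate 1 or 3 of red-light wild type, and 5 without replicate 1 of dark wild type or replicate 2 of red-light sfps-2. At an unadjusted edgeR p under 0.05 there were 7 of the 55 members, beside 49 of the 323 introns. For the members limma and DESeq2 gave 6 each at that level and 0 adjusted. The member nearest to the threshold was AT5G03500 Io006, with 68.7% ± 13.3 in red light and 79.5% ± 16.8 in the dark (SD, n = 6 each). Its log2 odds difference was -1.14 (SE 0.37, -1.88 to -0.40 at 2 SE to either side), with an edgeR adjusted p of 0.120. Across the 55 members the median size of the log2 odds difference was 0.19, with a median standard error of 0.19.

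For introns listed for light but not for genotype, 3 of 20 members and 6 of 152 introns (3.95%) passed for the genotype effect. All 3 members were retained more in sfps-2, as were 2.63% of the 152. Reads to other splice sites, such as the second donor 5 bases inside AT5G66180 Io009, were not in the test. Retention is thus measured beside the member's own junction and is not a share of all transcripts. AT5G66180 Io009, of a gene annotated as an S-adenosylmethionine-dependent methyltransferase, was at 49.2%, 69.0% and 50.7% in red-light sfps-2 and 36.5%, 46.7% and 39.7% in dark sfps-2. Wild type had 26.3%, 34.1% and 34.2% in red light and 28.8%, 16.1% and 14.9% in the dark. The log2 odds of retention were 1.51 higher in sfps-2 (SE 0.32, edgeR adjusted p = 0.0113), and within each light condition the genotypes did not overlap. AT3G26890 Io005 is 5′ untranslated in a gene annotated as a meiosis chromosome segregation family protein. It had 59.0% ± 5.91 in sfps-2 and 47.0% ± 6.39 in wild type (SD, n = 6 each, log2 odds 0.71, SE 0.16, edgeR adjusted p = 0.0130). Io006 of this gene, which overlaps Io005 and shares 1 boundary with it, did not pass. It had 30.3% ± 5.66 in sfps-2 and 29.2% ± 6.01 in wild type (log2 odds 0.086, SE 0.12, edgeR adjusted p = 0.774). AT1G58848 Io005, in the 3′ untranslated region of a resistance gene of the CC-NBS-LRR class, had 26.6% ± 7.95 in sfps-2 and 16.8% ± 5.54 in wild type (log2 odds 0.82, SE 0.19, edgeR adjusted p = 0.0130). The bases around both boundaries of the AT1G58848 intron occur 2 times in the genome, so its reads are uncertain. In the authors' deposited table its host was at 0.00256 to 0.0124 FPKM and was not tested in any comparison, while the 5′ and 3′ boundaries of the intron held 763 and 1007 reads over the 12 libraries. Its adjusted p was 0.0517 with limma and 0.0538 with edgeR without replicate 1 of red-light wild type. Of the 20 members, 8 had an unadjusted edgeR p under 0.05, beside 30 of the 152 introns.

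Over the 81 members with 12 libraries, the light difference in sfps-2 minus that in wild type had a median of 0.12 points and a median size of 2.80 points, and 11 members were over 10 points. Besides HUB2 (22.5), AT3G58450 (16.7), AT2G31600 (-21.2) and the 3 with few dark reads, these were OTS2 (11.3), GPX3 (11.2), BIN4 (13.7), AT2G15580 (-10.4) and AT5G03500 Io006. They are differences between contrasts that had chosen the introns and were not tested.

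Host gene expression was read from the authors' deposited table, at q under 0.05 and at least 1.5-fold. For genotype, 9 of 99 tested hosts of members listed in the dark were called (9.09%, against 7.2% of all 20698 genes tested), and 7 of 94 in red light (7.45%, against 6.51% of 20867). In the authors' deposited table CKB1 was at 31.7 FPKM in sfps-2 and 40.6 FPKM in wild type in the dark (q = 0.0956), and PCAP1 at 1093 and 1476 FPKM (q = 0.119), neither of which was called. For light, 28 of 59 hosts were called in wild type (47.5%, against 20.8% of 20635 genes), 25 of them higher in red light (14.9% of all genes), and 14 of 34 in sfps-2 (41.2%, against 21.4% of 20970), 9 of them higher (12.4% of all genes). In the authors' deposited table these included GOX1, at 245 FPKM in red light and 37.8 FPKM in the dark in sfps-2 and 283 FPKM in red light and 22.8 FPKM in the dark in wild type, and PSY, at 157 and 36.4 FPKM in sfps-2 and 188 and 29.0 FPKM in wild type. In the other direction SEN1 was at 257 FPKM in red light and 1138 FPKM in the dark in sfps-2 and 325 FPKM in red light and 1154 FPKM in the dark in wild type. The difference between the shares of hosts and of all genes was not tested.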

How the data were processed

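RNA-seq libraries of whole seedlings, 12 in 4 groups of 3, were grouped by their titles and genotype and treatment labels. Per the submitters' processing notes, the authors used FastQC, TopHat2, Cufflinks and the TAIR10 genome, and per the series' design text splicing was analysed with ASpli. Versions, settings and the use of strand in counting are not given in the sources used here. The authors deposited, per the file headers, junction read counts per library for each listed bin. They also deposited the retained fraction of each group, computed from reads summed over its libraries, with a p-value adjusted as FDR. Per the file headers and the submitters' processing notes, the authors computed the deposited FPKM values, 1 per group, and their q-values with Cuffdiff of Cufflinks, so no spread between libraries is known for FPKM. A list holds only bins past the authors' threshold, so its counts cover part of a library and say little of its total depth.

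Retention was recomputed per library from J1, J2 and J3, then averaged as mean ± SD. J1 and J2 were assigned to the 5′ and 3′ boundary by strand after the reads of introns with a shared end were compared. The factor for which an intron had not been listed was tested with edgeR 4.0.16 in R 4.3.3 (glmQLFit and glmQLFTest on boundary and spliced reads, with terms for library, read type, read type by genotype and read type by light, all 12 libraries, Benjamini-Hochberg adjustment). No scaling or filter on low counts was applied, and limma 3.58.1 and DESeq2 1.42.0 were alternatives. Tested on simulated data of 513 introns for the light effect, edgeR found 93% of the changed introns at a log2 change of 1 and 100% at 2, and 3.98% of its calls were false. In the simulated data 100 introns changed at each size, a larger share than passed in the real data. The spread between simulated libraries was set and not estimated from the data, so these values do not give the power of the tests above. Annotation and sequences were read with Python 3.11.15 and pandas 2.3.3 from the RefSeq annotation and genome.

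Members named with values were taken from those listed in 2 comparisons that share no library or in at least 3, the 6 largest differences per comparison with a mean of at least 10 junction reads, hosts on lists of clock, light signalling and splicing genes, and members that passed a test. Others are said to have been chosen after their values were seen. The members, the lists and the tests were chosen with earlier results of these data known.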

Additional observations from a re-analysis of the deposited data

How the results depend on the processing

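The counts of members retained more or less in each comparison stayed within 1.5 times under pooled reads, either boundary alone, at least 10 junction reads in every library and each left-out library. With the other junction added to the spliced reads, chosen after seeing the data, the genotype difference turned for AT3G58450 (-9.63 points in the dark, -4.76 in red light), XBAT35 (-0.242 and -0.0204), MPK17 Io010 (-4.17 in red light), GSTZ1 (-0.96 in red light), AT4G10925 Io004 (6.27 in the dark) and AT2G37840 Io004 (2.62 in the dark). The light difference turned with the 3′ boundary alone in RLP1 (3.33 points in wild type) and AT5G61310 Io002 (-1.05 in sfps-2). It turned with the 5′ boundary alone in LHCB4.3 (0.85 in wild type) and, in sfps-2, PnsL1 Io008 (3.19), KAT5 (15.2), AT5G61310 Io003 (1.23) and AT2G16365 (-0.39). With 1 library left out, light differences in sfps-2 ranged from -11.4 to 6.06 points for PnsL1 Io008, -79.8 to 20.2 for KAT5, -4.94 to 12 for AT5G61310 Io002 and -34.2 to 3.49 for AT5G61310 Io003, the last turned without dark replicate 2. For the light effect, 0 members passed under each left-out library, and 4 to 10 of all introns; for the genotype effect, 2 to 3 members and 4 to 7 introns. The limma test with 0.5 added gave 4 introns for light and 3 for genotype, against 9 and 6 with edgeR, and DESeq2 gave 10 and 7. With introns also listed for the tested factor, chosen after seeing the data, 3 members and 30 introns passed for light, and 5 members and 22 introns for genotype, but the added introns had been chosen on that factor, so these counts are a description. AT1G58848 had an adjusted p of 0.0517 with limma and 0.0538 without replicate 1 of red-light wild type. Host calls on q alone numbered 16 in the dark and 12 in red light for genotype, against 9 and 7. The cause of these changes was not tested. Same-numbered libraries shared only a number: of 18 correlations of their deviations, 3 exceeded 0.1 (-0.33 to 0.26). With the replicate number as a block, 73 and 34 members were higher and lower in sfps-2 in the dark, 63 and 37 in red light, and 0 and 3 members passed for light and genotype, all as without it. Members with few reads, such as KAT5 and RLP1, are limited by depth.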
